A study of Rattus norvegicus with 43 samples.

Results

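The Slc25 family holds the mitochondrial carriers, small membrane proteins that move metabolites, nucleotides and cofactors between the cytosol and the mitochondrial matrix. Its genes were taken by name, as every gene symbol made of Slc25a and a number, and each was read from 1 probe set, the one with the highest mean over the 43 arrays. This gave 37 genes among 14506 symbols on the array. Of these, 33 passed the filter on low signal, a median of at least 4.75 on the log2 scale, and were tested among 10934 genes. The other 4 lay under that floor and were not tested: Slc25a21, Slc25a27, Slc25a41 and Slc25a54, with medians of 3.69, 4.67, 4.69 and 3.14. A further 16 rat genes with names of this form, out of 53 in the RefSeq annotation, carried no name on the array and were not analysed here.

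The animals were Sprague Dawley rats aged 11 weeks, and RNA of the distal colon of each rat, 100 ng in total, went on an array of its own. The groups differed in diet alone as far as the labels say. They were CON, a control diet (n = 5), LAMS, low-amylose maize starch (n = 7), HAMS, high-amylose maize starch (n = 8), HAMSB, the same starch carrying esterified butyrate (n = 9), LAW, low-amylose wheat (n = 6), and HAW, high-amylose wheat (n = 8). The labels give diets as codes, and this reading of them rests on knowledge of the study, whose title speaks of a Western diet; the full composition of each diet is not given in the sources used here. Whole tissue was measured, so fewer cells of a type and less RNA per cell cannot be told apart. All 17 genes of a colonocyte marker list were above the floor, with keratin genes Krt8 at 12.40 and Krt19 at 12.37 on the log2 scale.

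Carriers of this family share a fold of repeated modules and are brought into the inner membrane by the TIM22 import route. Some exchange ATP, ADP and phosphate, others pass citrate, malate and oxoglutarate, amino acids, acyl groups or cofactors, and a few of them sit in other membranes. Colonocytes draw much of their energy from butyrate made by bacterial fermentation of starch that escapes digestion, and they oxidise it in mitochondria. High-amylose starch resists digestion, and butyrylated starch releases its butyrate in the large bowel.

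The promoters of 4 genes on which the results turn are shown first, Slc25a23, Slc25a34 and Slc25a39 as the genes called in the F test over diets with and without the block described below, and Slc25a24 as the carrier with the largest difference between a pair of diets compared. Each runs from 250 bases before to 50 bases after the annotated start, 5′ to 3′ on the gene's strand, from RefSeq on GRCr8. Their positions are chr9:1985316-1985615 on the minus strand for Slc25a23, chr5:159219843-159220142 on the minus strand for Slc25a34, chr10:87866924-87867223 on the minus strand for Slc25a39, and chr2:199449175-199449474 on the plus strand for Slc25a24. Capitals mark the GC box letters GGGCGG and the CCAAT letters, on either strand.
Slc25a23: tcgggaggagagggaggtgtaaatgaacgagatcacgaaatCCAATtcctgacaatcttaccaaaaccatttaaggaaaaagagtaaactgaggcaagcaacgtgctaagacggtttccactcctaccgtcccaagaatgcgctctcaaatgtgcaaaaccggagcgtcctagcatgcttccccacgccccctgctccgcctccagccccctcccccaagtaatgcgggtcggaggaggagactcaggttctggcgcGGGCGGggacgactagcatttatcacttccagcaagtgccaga
Slc25a34: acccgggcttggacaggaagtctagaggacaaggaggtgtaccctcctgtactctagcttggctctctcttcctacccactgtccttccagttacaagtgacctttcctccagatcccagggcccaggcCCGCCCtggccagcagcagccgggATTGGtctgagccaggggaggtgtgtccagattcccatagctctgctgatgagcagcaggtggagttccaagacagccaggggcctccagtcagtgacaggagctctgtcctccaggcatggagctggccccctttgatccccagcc
Slc25a39: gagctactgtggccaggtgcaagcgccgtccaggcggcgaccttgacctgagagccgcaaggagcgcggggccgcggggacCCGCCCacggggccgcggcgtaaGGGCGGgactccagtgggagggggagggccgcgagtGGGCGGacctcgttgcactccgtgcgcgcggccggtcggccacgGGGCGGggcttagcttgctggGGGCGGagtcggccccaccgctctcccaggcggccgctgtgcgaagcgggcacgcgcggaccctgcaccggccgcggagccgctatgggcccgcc
Slc25a24: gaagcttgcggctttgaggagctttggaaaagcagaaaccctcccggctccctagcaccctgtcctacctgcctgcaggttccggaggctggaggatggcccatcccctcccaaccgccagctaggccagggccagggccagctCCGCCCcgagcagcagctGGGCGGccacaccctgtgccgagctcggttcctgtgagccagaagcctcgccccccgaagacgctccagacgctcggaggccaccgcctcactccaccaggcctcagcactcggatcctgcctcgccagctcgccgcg

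Slc25a23 and Slc25a34 each held 1 GC box and 1 CCAAT match, Slc25a39 held 5 GC boxes and no CCAAT, and Slc25a24 held 2 GC boxes and no CCAAT. Promoters of 32 of the 37 genes were in the table. A GC box was found in 23 of them, or 71.9%, against 60.8% of the promoters of tested genes and 34.9% of all 27457 promoters. CCAAT was found in 18, or 56.2%, against 37.5% of tested genes and 37.7% of all promoters. The letters TCAAGGTCA, a site of the ERR nuclear receptors, were in none of these 32 windows and are in 0.412% of all promoters; the E-box CACGTG was in 2 of them, Slc25a2 and Slc25a51, and in 6.65% of all promoters. These counts describe letters in a window and were not set against the expression values by any test.

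Some properties of the arrays moved with diet and are given before the results. The lymphoid level, the mean of 10 tested genes of a 16-gene B cell list, stood above 7 on 6 of 8 HAMS arrays, and on 1 of 5 CON, 2 of 7 LAMS, 2 of 9 HAMSB, 2 of 6 LAW and 2 of 8 HAW arrays, a level picked after seeing the values. Its range was 5.37 to 9.21 in HAMS, 5.27 to 8.58 in LAMS and 5.34 to 7.97 in HAMSB. The colonocyte level, the mean of the 17 markers, ran from 8.84 to 10.09 in HAMS, 9.29 to 10.06 in LAMS and 9.78 to 10.37 in HAMSB, and 9 of its 17 genes were higher in HAMSB than in HAMS, where 14.2% of all genes were. In HAMS minus LAMS 2 of the 17 were lower, where 12% of all genes were. Of 10 fibroblast genes, 6 were lower in that comparison, with a median of -0.50 over the 10. The file names of the arrays follow 3 styles, which may mark batches: all 8 HAMS arrays share a single style, with 3 LAMS and 5 HAMSB arrays. Fits with this name style as a block are given where they change the call of a carrier, and in part for other genes. With that block 3 of the 10 fibroblast genes were lower in HAMS minus LAMS, where 6.28% of all genes were. The spread of values within an array (interquartile range over probe sets) averaged 3.01 in HAMS, 3.21 in LAMS and 3.12 in HAMSB. On this measure 2 arrays stood apart with the lowest spread, HAW replicate 8 at 2.68 and HAMS replicate 6 at 2.72, the next being 2.95.

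Diet was associated with the expression of 13 of the 33 tested carriers in limma's F test over the 6 diets, or 39.4%, where 30.7% of all genes passed. Slc25a23, an ATP-Mg/phosphate carrier, had the smallest adjusted p (0.000800), followed by the NAD carrier Slc25a51 (0.00153), the ATP-Mg/phosphate carrier Slc25a24 (0.00197), Slc25a30, a relative of the uncoupling proteins (0.00562), the glutathione carrier Slc25a39 (0.00798), and Slc25a35 (0.00822) and Slc25a34 (0.00877), whose substrates are less settled. Slc25a4, Slc25a11, Slc25a40, Slc25a28, Slc25a10 and Slc25a26 passed with adjusted p between 0.0323 and 0.0496. HAMS held the lowest of the 6 diet means in 21 of the 33 carriers, against 40.1% of all genes, and CON held the highest in 10, against 29.4%. With name style as a block, Slc25a34 (adjusted p = 0.00423), Slc25a23 (0.00751) and Slc25a39 (0.0221) passed, 9.09% of the carriers, where 12.8% of all genes passed.

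**Figure D1:**
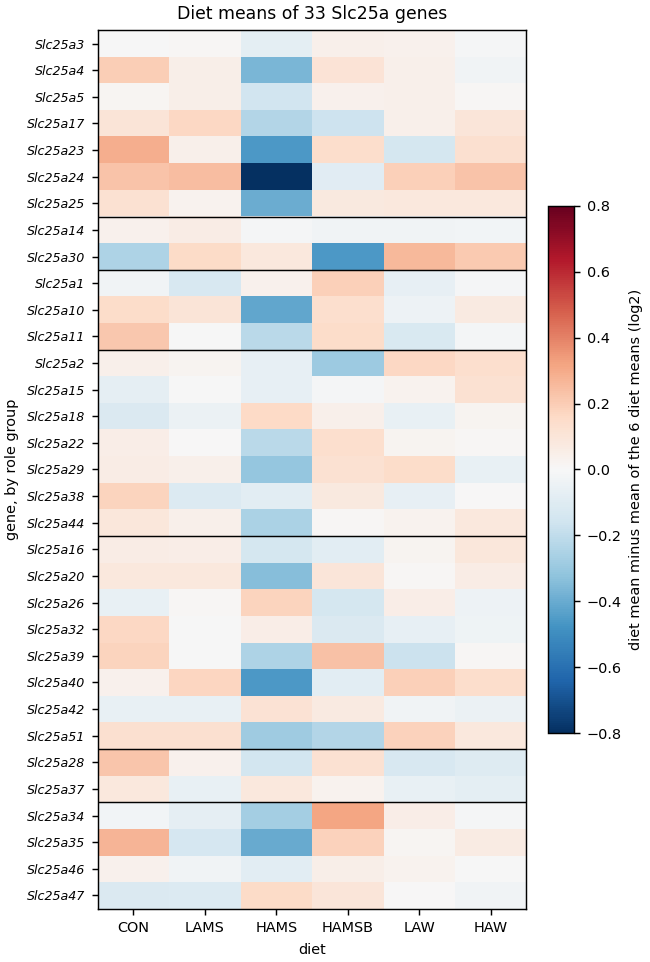
Difference of each diet's mean from the mean of the 6 diet means, on the log2 scale, for the 33 tested carriers ordered by role; colour gives the difference, and its scale stops at 0.8 to either side. HAMS holds the lowest mean in 21 of the 33 rows.

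Between plain high-amylose and low-amylose maize starch, 7 carriers were lower in HAMS and none was higher, 21.2% of the 33, where 14.1% of all genes were called, 12% lower and 2.17% higher. The median difference over the 33 was -0.20 on the log2 scale, against -0.08 over all genes. Of the 7 carriers of adenine nucleotides and phosphate, 4 fell, with a group median of -0.41. The other 3 that fell were the dicarboxylate carrier Slc25a10 and the cofactor carriers Slc25a40 and Slc25a51, while none of 7 amino acid carriers, 2 uncoupling protein relatives, 2 iron carriers or 4 genes of less settled function passed.

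Slc25a24 exchanges ATP-Mg for phosphate under control of cytosolic calcium. Its log2 values were 9.72, 9.93, 9.47, 9.44 and 9.10 in CON. The lowest, median and highest were 8.95, 9.57 and 10.20 in LAMS, 7.87, 8.34 and 9.19 in HAMS, 8.50, 9.24 and 9.78 in HAMSB, 8.83, 9.56 and 9.98 in LAW, and 8.92, 9.45 and 10.09 in HAW. All 8 HAMS values lay below the LAMS median and 5 of 8 below the lowest LAMS value, although the ranges overlapped. The difference HAMS minus LAMS was -1.05 ± 0.21 (SE), 2.06-fold lower with a 95% interval of 1.53 to 2.78, with an adjusted p of 0.00572 in limma. A second probe set of the gene gave -0.52 ± 0.18 (adjusted p = 0.0450).

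Slc25a23, a close relative with the same exchange, had log2 values of 8.17, 8.02, 8.51, 8.58 and 8.15 in CON. Its lowest, median and highest were 7.67, 8.08 and 8.33 in LAMS, 7.05, 7.67 and 7.90 in HAMS, 7.61, 8.15 and 8.39 in HAMSB, 7.59, 7.85 and 8.11 in LAW, and 7.81, 8.15 and 8.33 in HAW. All 8 HAMS rats lay below the LAMS median and 4 of them below the lowest LAMS rat. HAMS minus LAMS was -0.50 ± 0.12 (SE), 1.42-fold lower (95% interval 1.20 to 1.67, adjusted p = 0.00920 in limma). The gene's second probe set gave -0.30 ± 0.14 (adjusted p = 0.109) and did not pass.

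Slc25a4, an ADP/ATP translocase that exports ATP from the matrix, had log2 values of 8.74, 8.17, 7.93, 8.56 and 8.35 in CON. The lowest, median and highest were 7.79, 8.23 and 8.66 in LAMS, 7.09, 7.94 and 8.17 in HAMS, and 8.05, 8.24 and 8.60 in HAMSB; the wheat medians were 8.17 in LAW and 8.08 in HAW. All 8 HAMS values fell below the LAMS median, and HAMS minus LAMS was -0.41 ± 0.14 (adjusted p = 0.0462). Slc25a17, the carrier of the peroxisomal membrane for CoA and adenine nucleotides, had medians of 7.54 in LAMS and 7.20 in HAMS, with 6 of 8 HAMS values below the lowest LAMS value of 7.45, and differed by -0.40 ± 0.13 (adjusted p = 0.0417; 0.104 with name style as a block). The other ADP/ATP translocase tested, Slc25a5, gave -0.20 with a 95% interval of -0.42 to 0.02, and the phosphate carrier Slc25a3 gave -0.08 with an interval of -0.30 to 0.14.

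Slc25a51 carries NAD into mitochondria, and its log2 values were 9.44, 9.46, 9.36, 9.34 and 9.35 in CON. The lowest, median and highest were 9.17, 9.43 and 9.50 in LAMS, 8.80, 8.92 and 9.32 in HAMS, 8.61, 8.97 and 9.35 in HAMSB, 9.18, 9.44 and 9.72 in LAW, and 8.79, 9.40 and 9.56 in HAW. Of the HAMS values, 7 of 8 lay below the lowest LAMS value. HAMS minus LAMS was -0.41 ± 0.10 (SE), 1.33-fold lower (95% interval 1.16 to 1.53, adjusted p = 0.0109), and the gene's other 2 probe sets gave -0.32 and -0.40 and also passed. With name style as a block the difference was -0.23 and the adjusted p 0.0671.

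Slc25a10, which exchanges malate and succinate for phosphate, had log2 values of 8.96, 9.24, 9.34, 8.82 and 8.70 in CON. Its lowest, median and highest were 8.51, 9.00 and 9.33 in LAMS, 7.79, 8.39 and 9.06 in HAMS, 8.66, 9.12 and 9.21 in HAMSB, 8.30, 8.96 and 9.19 in LAW, and 8.36, 8.99 and 9.19 in HAW. HAMS was the most variable diet for this gene (SD 0.48), with 5 of 8 values below the lowest LAMS value and 2 above the LAMS median. HAMS minus LAMS was -0.52 ± 0.17 (adjusted p = 0.0362). Slc25a40, a glutathione carrier like Slc25a39, had log2 values of 7.37, 6.92, 7.03, 6.94 and 6.59 in CON, medians of 7.08 in LAMS and 6.43 in HAMS, and ranges of 6.70 to 7.58 and 5.60 to 7.14. It differed by -0.63 ± 0.19 (adjusted p = 0.0264; 0.179 with name style as a block).

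Other settings decided how many of these 7 calls stood. With the array spread as a covariate, none of the 33 carriers passed in HAMS minus LAMS, with Slc25a24 at -0.71 (adjusted p = 0.107), and with the colonocyte level as a covariate none passed either, with Slc25a24 at -0.82 (adjusted p = 0.0547) and Slc25a51 at -0.41 (adjusted p = 0.0612). With the lymphoid level as a covariate 3 of the 7 passed, Slc25a23 (adjusted p = 0.0310), Slc25a24 (0.0161) and Slc25a51 (0.0255), and Slc25a1 passed as higher in HAMS, at 0.28 (adjusted p = 0.0306). With name style as a block 6 passed, all lower, where 8.64% of all genes did, 6.28% lower and 2.36% higher: Slc25a17, Slc25a40 and Slc25a51 no longer did, and Slc25a34 (-0.39, adjusted p = 0.0409) and Slc25a39 (-0.38, adjusted p = 0.0454) did. Leaving out LAMS replicate 3, LAMS replicate 6 or HAMS replicate 8 left 3 calls, and leaving out HAMS replicate 1 gave 10. Slc25a23, Slc25a24 and Slc25a51 passed in each of the 15 fits without 1 array. Among the arrays of the name style that all HAMS arrays share (8 HAMS, 3 LAMS), these genes did not pass in limma. They stood at -0.43 (adjusted p = 0.0760), -0.74 (0.0940) and -0.30 (0.133) in that order. Those that passed there, all lower in HAMS, were Slc25a4, Slc25a10, Slc25a29, Slc25a34 and Slc25a39. The 3 LAMS arrays of that style had a mean lymphoid level of 5.29, against 7.62 in HAMS and 7.17 on the other 4 LAMS arrays. The lymphoid level thus differed between the diets in this fit, and its part there was not tested.

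**Figure D2:**
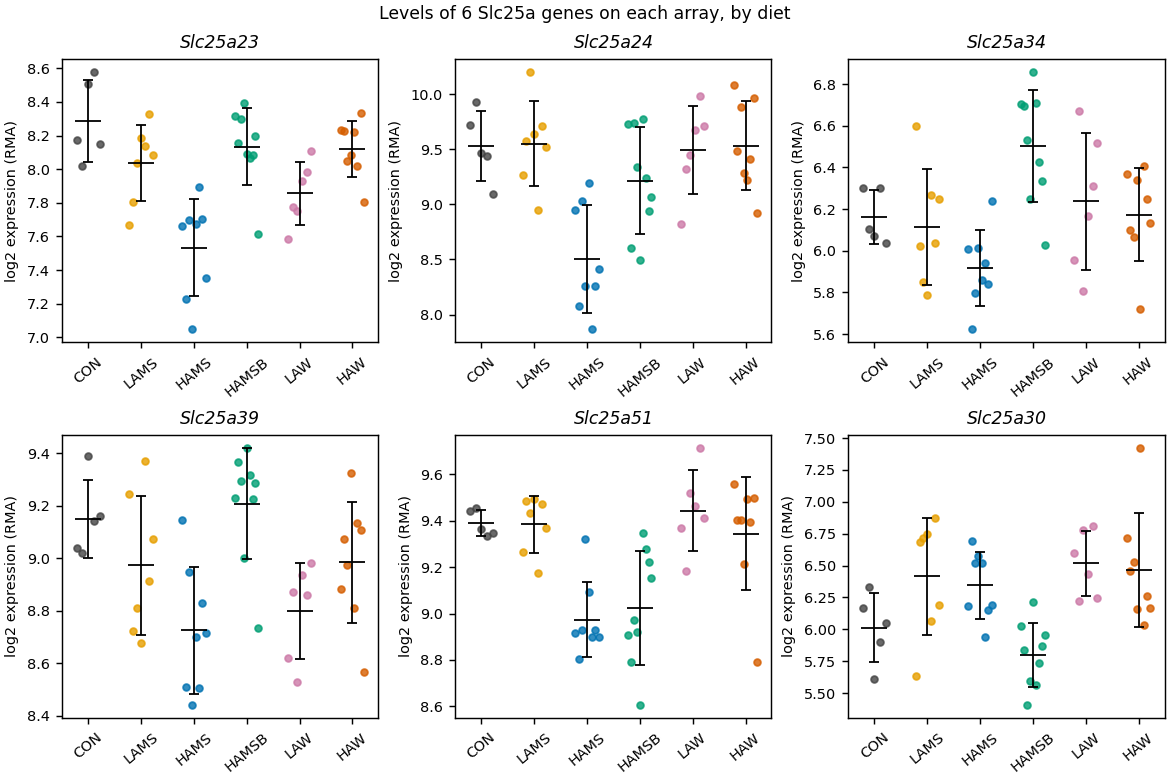
Log2 expression of the carriers on which the results turn, by diet; each point is 1 rat, the wide bar is the diet mean and the error bar is ± 1 SD. For Slc25a24 the 8 HAMS values run from 7.87 to 9.19 and the 7 LAMS values from 8.95 to 10.20; for Slc25a34 the 9 HAMSB values run from 6.03 to 6.86 and the HAMS values from 5.62 to 6.24.

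Between the butyrylated and the plain high-amylose starch, 12 carriers were higher in HAMSB and 2 were lower, 42.4% of the 33, where 16.7% of all genes were called, 14.2% higher and 2.48% lower. The median difference was 0.17 on the log2 scale against 0.07 over all genes. HAMSB minus HAMS and HAMS minus LAMS share the HAMS arrays, so a gene that was low in HAMS contributes to both. By role, 4 of 7 adenine nucleotide and phosphate carriers, 2 of 3 carboxylate carriers, 2 of 7 amino acid carriers, 2 of 8 cofactor and acyl carriers and 2 of 4 genes of less settled function were higher; 1 cofactor carrier and 1 of 2 uncoupling protein relatives were lower.

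Slc25a23 gave the smallest p of the family. The HAMSB values lay above the highest HAMS value in 8 of 9 rats, and the difference was 0.60 ± 0.11 (SE), 1.52-fold higher (95% interval 1.30 to 1.77, adjusted p = 0.00123 in limma); its second probe set gave 0.26 ± 0.13 (adjusted p = 0.136). Slc25a24 was higher by 0.71 ± 0.20 (adjusted p = 0.0142) in the probe set used, with all 9 HAMSB values above the HAMS median, but its second probe set gave 0.03 ± 0.17 (adjusted p = 0.917), so the probe sets of this gene disagree in this comparison. Slc25a4 rose by 0.48 ± 0.13 (adjusted p = 0.0142), with 6 of 9 HAMSB values above the highest HAMS value. Slc25a25, the third ATP-Mg/phosphate carrier, had ranges of 6.07 to 6.36 in HAMSB and 5.20 to 6.30 in HAMS and rose by 0.47 ± 0.16 (adjusted p = 0.0360; 0.0510 with name style as a block).

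Slc25a34 and its relative Slc25a35 are carriers whose substrates are not settled. Slc25a34 had log2 values of 6.30, 6.11, 6.07, 6.30 and 6.04 in CON, and its lowest, median and highest were 5.79, 6.04 and 6.60 in LAMS, 5.62, 5.90 and 6.24 in HAMS, 6.03, 6.53 and 6.86 in HAMSB, 5.81, 6.24 and 6.67 in LAW, and 5.72, 6.19 and 6.40 in HAW. In 8 of 9 HAMSB rats the value was above the highest of HAMS. HAMSB minus HAMS was 0.59 ± 0.12 (SE), 1.50-fold higher (95% interval 1.27 to 1.77, adjusted p = 0.00188).

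Slc25a35 had log2 values of 7.41, 7.12, 7.10, 7.17 and 7.30 in CON. Its lowest, median and highest were 6.21, 6.76 and 7.37 in LAMS, 6.18, 6.56 and 6.92 in HAMS, 6.74, 7.19 and 7.49 in HAMSB, 6.60, 6.87 and 7.44 in LAW, and 6.60, 7.07 and 7.32 in HAW. Of the HAMSB values, 7 of 9 lay above the highest HAMS value, and the difference was 0.59 ± 0.14 (adjusted p = 0.00486).

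Slc25a39 supplies glutathione to the matrix. It had log2 values of 9.04, 9.02, 9.39, 9.14 and 9.16 in CON. The lowest, median and highest were 8.68, 8.91 and 9.37 in LAMS, 8.44, 8.71 and 9.15 in HAMS, 8.73, 9.29 and 9.42 in HAMSB, 8.53, 8.87 and 8.98 in LAW, and 8.57, 9.02 and 9.32 in HAW. HAMSB was above the highest HAMS value in 7 of 9 rats, and the difference was 0.48 ± 0.11 (adjusted p = 0.00376). Slc25a40 did not pass here, at 0.37 with a 95% interval of 0.01 to 0.73 (adjusted p = 0.127). Slc25a20, which brings acylcarnitines into the matrix for beta-oxidation, had medians of 7.97 in HAMSB and 7.44 in HAMS and rose by 0.44 ± 0.15 (adjusted p = 0.0432; 0.134 with name style as a block).

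Of the carboxylate carriers, Slc25a10 rose by 0.55 ± 0.16 (adjusted p = 0.0173), with 5 of 9 HAMSB values above the highest HAMS value. Slc25a11, which exchanges oxoglutarate for malate, had log2 values of 9.999, 9.74, 10.13, 9.93 and 9.89 in CON, and its lowest, median and highest were 9.43, 9.73 and 10.02 in LAMS, 9.05, 9.55 and 10.03 in HAMS and 9.67, 9.84 and 10.24 in HAMSB, with medians of 9.61 in LAW and 9.77 in HAW. It rose by 0.36 ± 0.11 (adjusted p = 0.0199; 0.0510 with name style as a block), although a single HAMSB value exceeded the highest of HAMS.

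Among the amino acid carriers, the glutamate carrier Slc25a22 rose by 0.35 ± 0.11 (adjusted p = 0.0224), from a median of 7.21 in HAMS to 7.51 in HAMSB. Slc25a29, a carrier of basic amino acids, had log2 values of 6.22, 6.25, 6.38, 6.48 and 6.16 in CON. Its lowest, median and highest were 5.86, 6.16 and 6.80 in LAMS, 5.52, 5.88 and 6.53 in HAMS, 6.06, 6.35 and 6.59 in HAMSB, 6.10, 6.36 and 6.69 in LAW, and 5.43, 6.19 and 6.73 in HAW. It rose by 0.43 ± 0.14 (adjusted p = 0.0326), with all 9 HAMSB values above the HAMS median and 1 above the highest HAMS value. The other 5 amino acid carriers, Slc25a2, Slc25a15, Slc25a18, Slc25a38 and Slc25a44, did not pass, with differences from -0.23 to 0.26.

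The 2 carriers that were lower in HAMSB were Slc25a30 and Slc25a26. Slc25a30 had log2 values of 6.17, 6.33, 5.61, 5.90 and 6.05 in CON, and its lowest, median and highest were 5.63, 6.69 and 6.87 in LAMS, 5.94, 6.35 and 6.69 in HAMS, 5.41, 5.84 and 6.22 in HAMSB, 6.23, 6.52 and 6.81 in LAW, and 6.04, 6.36 and 7.43 in HAW. In 6 of 9 HAMSB rats it was below the lowest HAMS value, and it differed by -0.55 ± 0.16 (adjusted p = 0.0183). CON and HAMSB were the low diets for this gene, and their ranges overlapped.

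Slc25a26 carries S-adenosylmethionine, the methyl donor, into the matrix. Its log2 values were 6.64, 6.83, 6.85, 6.79 and 6.86 in CON, and the lowest, median and highest were 6.62, 6.88 and 7.07 in LAMS, 6.63, 7.08 and 7.33 in HAMS, 6.58, 6.64 and 6.93 in HAMSB, 6.85, 6.89 and 7.03 in LAW, and 6.51, 6.86 and 7.12 in HAW. All 9 HAMSB values lay below the HAMS median, and the difference was -0.32 ± 0.08 (SE), 1.25-fold lower (95% interval 1.11 to 1.40, adjusted p = 0.0101).

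**Figure D3:**
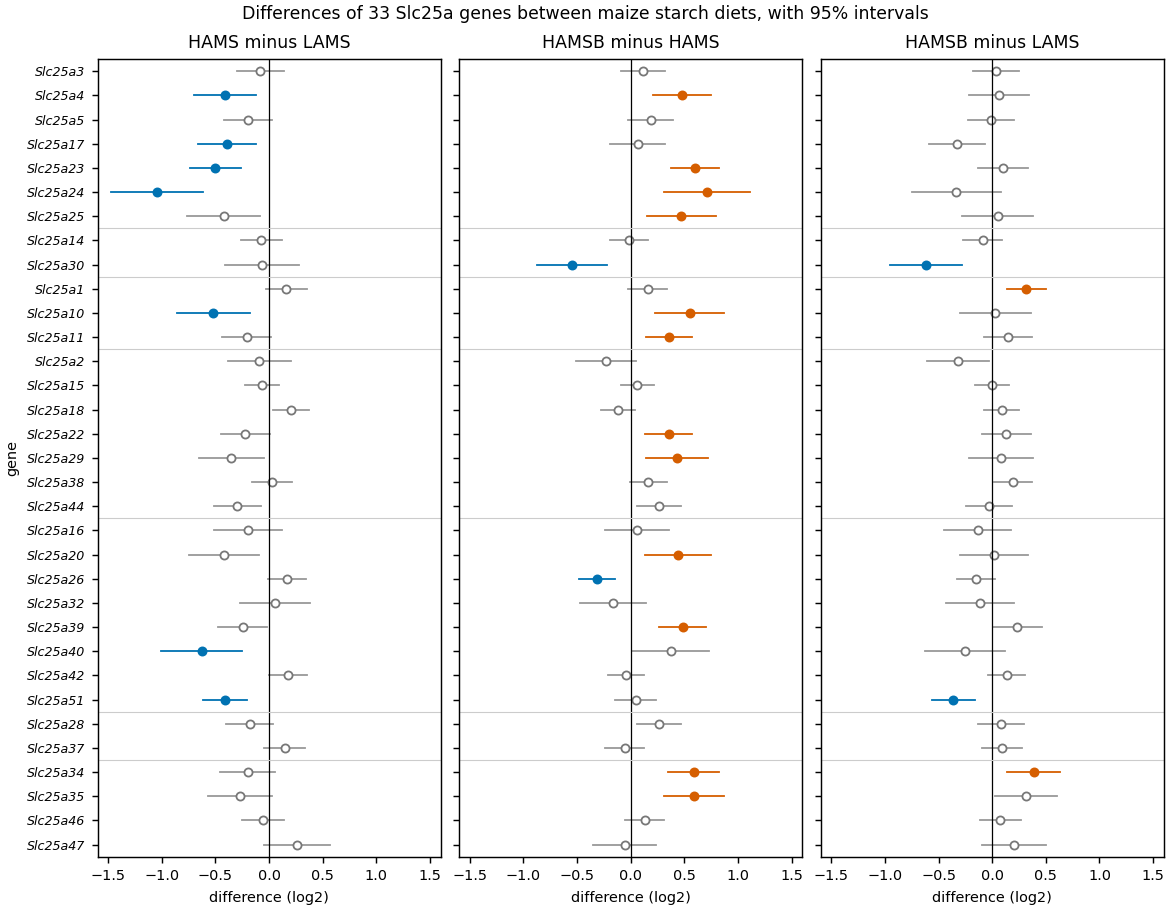
Differences between diets on the log2 scale for the 33 carriers in 3 maize comparisons, with 95% intervals from limma; filled points have an adjusted p under 0.05, orange for higher and blue for lower, and grey lines part the role groups. In HAMSB minus HAMS 12 filled points lie to the right of 0 and 2 to the left; in HAMS minus LAMS all 7 lie to the left.

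The fit with name style as a block gave 10 carriers higher and 3 lower in HAMSB minus HAMS, where 30.5% of all genes were called, 19.4% higher and 11.1% lower: it lost Slc25a11, Slc25a20 and Slc25a25 and added the citrate carrier Slc25a1, at 0.29 (adjusted p = 0.0110), and the ornithine carrier Slc25a2, at -0.38 (adjusted p = 0.0235). Among the arrays of the single style that all HAMS arrays share, 10 carriers passed, with Slc25a34 at 0.69 (adjusted p = 0.00233) and Slc25a23 at 0.72 (0.00337). They included Slc25a1 and Slc25a2, while Slc25a10, Slc25a11, Slc25a20, Slc25a24, Slc25a25 and Slc25a29 did not pass there. The 5 HAMSB arrays of that style had a mean lymphoid level of 5.74, against 7.62 in HAMS. With the lymphoid level as a covariate 3 carriers passed, Slc25a23, Slc25a34 and Slc25a35. The shares of all genes that passed in these fits are not given here. With the colonocyte level as a covariate none of the 33 passed, nor did any other gene, and Slc25a23 stood at 0.39 (adjusted p = 0.440), Slc25a34 at 0.34 (0.458), Slc25a39 at 0.13 (0.769) and Slc25a10 at -0.04 (0.960). Leaving out HAMS replicate 2 or HAMS replicate 4 left 8 calls, and Slc25a23, Slc25a24, Slc25a26, Slc25a34, Slc25a35 and Slc25a39 passed in each of the 17 fits without 1 array.

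Between the butyrylated starch and low-amylose starch, 4 carriers differed, 2 lower and 2 higher, 12.1% of the 33, where 6.78% of all genes were called, 4.59% lower and 2.19% higher; the median difference was 0.05 against 0.01 over all genes. Slc25a51 was lower in HAMSB by 0.36 ± 0.10 (SE), 1.29-fold lower (95% interval 1.12 to 1.48, adjusted p = 0.0238 in limma), with all 9 HAMSB values below the LAMS median and 6 of 9 below the lowest LAMS value; its other 2 probe sets passed as well. In HAMSB minus HAMS the same gene gave 0.05 with a 95% interval of -0.14 to 0.24. Within HAMSB the values split by name style: the 5 arrays of the style that all HAMS arrays share ran from 8.61 to 8.97, and the 4 of another style, which holds no LAMS array, from 9.15 to 9.35. With name style as a block HAMSB minus LAMS was -0.33 (adjusted p = 0.0260).

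Slc25a30 was lower in HAMSB than in LAMS by 0.62 ± 0.17 (adjusted p = 0.0236), with all 9 values below the LAMS median; with name style as a block the difference was -0.31 and the adjusted p 0.281. Its LAMS values split by name style. The 3 arrays of the style that all HAMS arrays share ran from 5.63 to 6.19, and the other 4 from 6.69 to 6.87. Within the shared style the difference was -0.15 (adjusted p = 0.777 in limma). Slc25a34 was higher in HAMSB than in LAMS by 0.39 ± 0.12 (adjusted p = 0.0460; 0.125 with the block), with 4 of 9 values above the highest LAMS value. Slc25a1, which exports the citrate used for fatty acid synthesis, had log2 values of 7.79, 7.87, 7.99, 7.83 and 7.71 in CON. Its lowest, median and highest were 7.48, 7.72 and 8.01 in LAMS, 7.65, 7.83 and 8.15 in HAMS, 7.68, 8.13 and 8.35 in HAMSB, 7.62, 7.80 and 7.96 in LAW, and 7.64, 7.83 and 8.04 in HAW. It was higher in HAMSB by 0.32 ± 0.09 (adjusted p = 0.0320), in 5 of 9 rats above the highest LAMS value, while its second probe set gave 0.04 ± 0.10 (adjusted p = 0.813) and disagreed. The HAMSB values of Slc25a1 split by name style too. The 5 arrays of the style that all HAMS arrays share ran from 8.13 to 8.35, and the other 4 from 7.68 to 7.92. Within the shared style HAMSB minus LAMS was 0.36 (adjusted p = 0.196 in limma). With name style as a block 2 carriers passed, Slc25a51 and Slc25a1, where 2.99% of all genes did, 1.62% lower and 1.37% higher. Leaving out LAMS replicate 2, 3, 4 or 6 left none of the 33 called, and leaving out LAMS replicate 1 or HAMSB replicate 8 gave 5. Those 4 LAMS arrays are all the LAMS arrays of a name style that no HAMSB array has. Among the 3 LAMS and 5 HAMSB arrays of the shared style, none of the 33 passed in limma.

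In LAMS minus CON no carrier and no gene passed in limma (0% of all genes). The 938 genes with an unadjusted p under 0.05, 8.58% of all genes, included 3 of the 33 carriers. They were the glycine carrier Slc25a38 at -0.29 ± 0.10 (adjusted p = 0.331), Slc25a35 at -0.41 ± 0.17 (0.462) and Slc25a30 at 0.40 ± 0.19 (0.570). Slc25a38 had log2 values of 7.78, 7.71, 8.00, 8.05 and 7.75 in CON, and its lowest, median and highest were 7.43, 7.48 and 7.87 in LAMS, 7.24, 7.63 and 7.82 in HAMS, 7.61, 7.79 and 7.91 in HAMSB, 7.35, 7.66 and 7.78 in LAW, and 7.21, 7.70 and 7.93 in HAW. The median difference over the 33 was -0.02 against -0.04 over all genes.

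In the wheat diets no carrier and no gene passed in HAW minus LAW in limma (0% of all genes). An unadjusted p under 0.05 was seen in 212 genes, 1.94% of all genes, and in 1 of the 33 carriers. That carrier was Slc25a23, at 0.27 with a 95% interval of 0.02 to 0.51 (adjusted p = 1.00). The second probe set of Slc25a23 gave -0.02 ± 0.14. Over the 33 carriers the differences ran from -0.21, in Slc25a29, to 0.27, with a median of 0.00 against -0.02 over all genes. In LAW minus LAMS none of the 33 and no gene passed either, with 0 carriers and 192 genes (1.76% of all) at an unadjusted p under 0.05. There Slc25a28, mitoferrin-2, an iron importer, had the smallest p of the family at -0.17 with an interval of -0.40 to 0.07.

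The difference of the amylose effects, wheat minus maize, tests whether the carriers moved unlike in the grains. No carrier passed in limma, where 0.0274% of all genes did, 0.0183% lower and 0.00915% higher. Of the 33 carriers 10 had an unadjusted p under 0.05, where 1674 genes did, 15.3% of all genes. The median over the 33 was 0.17 against 0.06 over all genes. Slc25a23 gave 0.77 ± 0.17 (adjusted p = 0.0847; 0.0398 with name style as a block, where 0.457% of all genes passed, 0.348% higher and 0.11% lower), Slc25a24 gave 1.08 ± 0.31 (0.163) and Slc25a10 gave 0.64 ± 0.24 (0.230). In the probe set used for Slc25a23, HAW was above LAW while HAMS was below LAMS. The gene's second probe set gave 0.29 ± 0.20 (adjusted p = 0.452 in limma), with HAW minus LAW at -0.02. The second probe set of Slc25a24 gave 0.47 ± 0.26 (adjusted p = 0.358).

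Slc25a28 passed the F test (adjusted p = 0.0435) without passing in any of the 6 pairs of diets compared, and CON with HAMS was not among them. Its log2 values were 7.24, 7.08, 7.23, 7.32 and 7.14 in CON, and the lowest, median and highest were 6.65, 7.00 and 7.52 in LAMS, 6.53, 6.84 and 7.09 in HAMS, 6.73, 7.06 and 7.51 in HAMSB, 6.53, 6.81 and 7.16 in LAW, and 6.65, 6.87 and 7.03 in HAW. CON had the highest mean, 7.20 ± 0.09 (SD), and HAMS the lowest, 6.83 ± 0.21.

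The other 14 tested carriers passed neither the F test nor any comparison of diets. They were the phosphate carrier Slc25a3, the ADP/ATP translocase Slc25a5, the uncoupling protein relative Slc25a14, the amino acid carriers Slc25a2, Slc25a15, Slc25a18, Slc25a38 and Slc25a44, the CoA carriers Slc25a16 and Slc25a42, the folate carrier Slc25a32, the iron importer Slc25a37 (mitoferrin-1), the outer membrane protein Slc25a46, which takes part in mitochondrial shape, and Slc25a47. Their differences ran from -0.30, in Slc25a44, to 0.26, in Slc25a47, in HAMS minus LAMS, and from -0.23, in Slc25a2, to 0.26, in Slc25a44, in HAMSB minus HAMS. Slc25a3 had diet means between 10.27 in HAMS and 10.39 in HAMSB, and Slc25a5 between 11.47 in HAMS and 11.67 in LAMS and LAW.

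Within diets, many carriers varied with the lymphoid level of the array. The slope was taken in log2 units per log2 unit of lymphoid level. It passed as negative in 16 of the 33 and as positive in 5. Of all genes, 53.4% had a slope that passed, 35.2% negative and 18.2% positive. The median slope was -0.05 against -0.03 over all genes. Slc25a10 had the steepest slope, -0.20 ± 0.03 (adjusted p = 1.6e-08 in limma), followed by Slc25a29 and Slc25a40 at -0.14. The positive slopes that passed were those of Slc25a2, Slc25a30, Slc25a18, Slc25a26 and Slc25a37. Slc25a51, at -0.00063 ± 0.02, had a slope near 0, which was -0.03 with the block on name style (adjusted p = 0.137), and with the lymphoid level as a covariate it stood at -0.41 in HAMS minus LAMS (adjusted p = 0.0255). With name style and the lymphoid level together that difference was -0.18 (adjusted p = 0.370). The part of lymphoid tissue in the differences of the carriers was not tested beyond the fits with that level as a covariate.

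**Figure D4:**
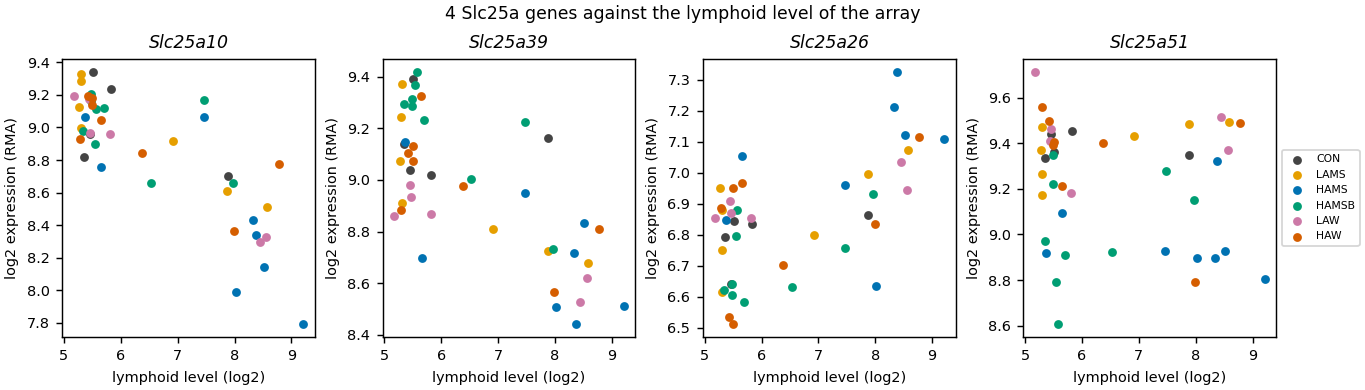
Log2 expression of Slc25a10, Slc25a39, Slc25a26 and Slc25a51 against the lymphoid level of each of the 43 arrays, coloured by diet. Slc25a10 and Slc25a39 fall and Slc25a26 rises towards high lymphoid levels, where 6 of the 8 HAMS arrays lie. Slc25a51 has low HAMS values at low and high lymphoid levels, but HAMS replicate 4, at a lymphoid level of 8.37, stands at 9.32. The 2 HAMSB arrays above 7 stand at 9.28 and 9.15, within the range of 9.15 to 9.35 of the 4 HAMSB arrays of their name style.

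Family members under other names and genes that work with the carriers were read in the same comparisons, where 12% of all genes were lower in HAMS minus LAMS and 14.2% higher in HAMSB minus HAMS. With name style as a block these shares were 6.28% and 19.4%. Of Ucp2, Ucp3, Mtch1 and Mtch2, the tested ones of 5, Mtch2, an outer membrane insertase, was lower in HAMS than in LAMS by 0.41 ± 0.14 (adjusted p = 0.0446; 0.0746 with name style as a block), and Ucp2 was higher in HAMSB than in LAMS by 0.31 ± 0.09 (0.0294; 0.135 with the block). Of 12 tested genes of the TIM22 import route, 2 were lower in HAMS minus LAMS, the chaperone Timm9 by 0.62 ± 0.17 (with the block, adjusted p = 0.114) and the receptor Tomm70 by 0.30 ± 0.09 (0.188 with the block), and 3 were higher in HAMSB minus HAMS, among them Timm8b by 0.74 ± 0.21 (adjusted p = 0.0140).

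Carnitine and beta-oxidation enzymes, which use the acylcarnitines that Slc25a20 carries, fell in 7 of 16 tested genes in HAMS minus LAMS, with a median of -0.38 against -0.08 over all genes, and rose in 11 of 16 in HAMSB minus HAMS, with a median of 0.46 against 0.07; of all genes, 12% were lower in the former and 14.2% higher in the latter. Decr1 (-0.58 ± 0.15) and the thiolase Acaa2 (-0.65 ± 0.17) fell in the former, and carnitine acetyltransferase Crat (0.60 ± 0.11, adjusted p = 0.00130) and Cpt2 (0.55 ± 0.15) rose in the latter. Of 9 tested ornithine, proline and glutamate enzymes, 4 fell in HAMS minus LAMS, among them Glud1, glutamate dehydrogenase, at -0.39 ± 0.10, and 1 rose in HAMSB minus HAMS, Aldh18a1 at 0.44 ± 0.12. With name style as a block, 5 of the 16 beta-oxidation genes and 4 of these 9 were lower in HAMS minus LAMS. Of all genes, 6.28% were lower in that fit. In HAMSB minus HAMS, 11 of the 16 and 3 of the 9 were higher, where 19.4% of all genes were, and 1 of the 9 was lower.

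Of 15 other transporters of mitochondrial membranes, 1 fell in HAMS minus LAMS, where 12% of all genes did, and 3 rose in HAMSB minus HAMS, where 14.2% did, the pyruvate carrier subunits Mpc1 (0.61 ± 0.16) and Mpc2 (0.62 ± 0.17) and Abcb10 (0.39 ± 0.14). Of 14 shuttle enzymes, 2 fell and 3 rose in the same comparisons. Of 13 haem and iron-sulphur genes, 1 fell and 5 rose; the one that fell, Alas1, the first enzyme of haem synthesis, stood at -0.56 ± 0.18 in HAMS minus LAMS (adjusted p = 0.0558 with name style as a block) and at 0.69 ± 0.17 in HAMSB minus HAMS. Of 12 regulators of mitochondrial biogenesis, 2 fell and 2 rose, with Ppargc1a at -0.72 ± 0.24 and 0.63 ± 0.23 in that order of comparisons; with name style as a block 0 of the 12 were lower in HAMS minus LAMS, and Ppargc1a had an adjusted p of 0.222. With that block, 2 of the 15 transporters, 1 of the 14 shuttle enzymes and 3 of the 13 haem and iron-sulphur genes were lower there. The share of all genes was 6.28%. In HAMSB minus HAMS 3, 3 and 4 of them were higher in that order, where 19.4% of all genes were. Abcb10, the transporter that fell without the block, had an adjusted p of 0.0620 with it in limma. These lists share the HAMS arrays and the lymphoid and colonocyte levels given above, and the part of cell composition in their differences was not tested.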

How the data were processed

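The authors deposited log2 expression values. RMA is the tool that the submitters' processing notes name; it corrects background, equalises the distributions of the arrays and summarises probes, and its version is not given in the sources used here. Arrays carry no read depth, and the number of rats limits precision. Of 29214 probe sets, 15310 had 1 gene symbol, 323 several and 13581 none; each symbol was read from its probe set of highest mean among those with exactly 1 symbol, and kept if its median reached the 25th percentile of probe sets with a symbol. Diet means were fitted with limma 3.58.1 in R 4.3.3 over all 43 arrays, two-sided, with Benjamini-Hochberg adjustment over 10934 genes and a threshold of 0.05; the fit was checked on simulated data. The members and gene lists were chosen with earlier results of these data known. Every carrier called in the F test or a comparison is named. Those called in the F test or with the 3 smallest p of a comparison have fuller values. For these the CON arrays are given singly, and other diets by lowest, median and highest, or by less for some genes. From each list up to 3 called genes were eligible. Replicate numbers did not pair the rats: same-numbered arrays correlated at -0.06 on average (94 pairs, -0.79 to 0.64). Alternatives covered filters, all probe sets, priors, array weights, centring, name style, number range, the lymphoid level and array spread; the colonocyte covariate and leaving out the 2 arrays of lowest spread were added after seeing the data. Figures were drawn with matplotlib 3.10.9.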

Additional observations from a re-analysis of the deposited data

Results flagged for a closer look

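Of 114 diet groups of 19 carriers that were screened for a rat far from the others of its diet, 4 held one, where chance gives about 1 in 20. Slc25a23 was 7.61 on HAMSB replicate 9, the nearest other HAMSB value being 8.07. Slc25a51 was 8.79 and Slc25a11 was 9.37 on HAW replicate 8, the array of lowest spread, with the nearest other HAW values at 9.21 and 9.64. Slc25a22 was 7.91 on HAW replicate 2, with the nearest other value at 7.43.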

How the results depend on the processing

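Of the 33 carriers, 13 passed the F test, 7 HAMS minus LAMS, 4 HAMSB minus LAMS and 14 HAMSB minus HAMS, and none passed the other comparisons. The F test gave 23 with array weights, 3 with name style as a block, 2 with name style and number range, 2 with name style and the lymphoid level, 6 with array spread and 7 with the colonocyte level as a covariate. HAMS minus LAMS gave 13 with array weights, 4 with the lymphoid level, 3 with only the compared diets fitted, and 0 with name style and the lymphoid level, with array spread or with the colonocyte level. HAMSB minus LAMS gave 10 with array weights, 2 with centring, with name style, with number range or with only the compared diets fitted, and 0 with name style and number range or within the shared name style. HAMSB minus HAMS gave 3 with the lymphoid level, 2 with name style added to it and 0 with the colonocyte level, where Slc25a10 turned to -0.037 and Slc25a11 to -0.0053. Array weights gave 2 in LAMS minus CON and 5 in the grain comparison, which gave 1 with name style or with name style and number range. HAW minus LAW and LAW minus LAMS gave 0 in each fit made. Counts under the other alternatives stayed within 1.5 times, except that leaving out the 2 arrays of lowest spread gave 1 in the grain comparison. For most of these alternatives, and for the fits without 1 array, the share of all genes that passed is not given here. Those counts therefore compare settings, and do not set the carriers against other genes. The cause was not tested.

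Leaving out 1 array at a time gave 7 to 16 in the F test, 3 to 10 in HAMS minus LAMS, 0 to 5 in HAMSB minus LAMS, 8 to 15 in HAMSB minus HAMS and 0 to 2 in the grain comparison. The F test fell to 7 without HAMS replicate 4. The replicate block gave 3 in HAMS minus LAMS and 10 in the F test and left the other counts as they were; 4 of 43 arrays correlated best with an array of their own number.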
